A study of Mus musculus with 2 samples.

Results

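Semaphorins and the receptors that bind them were examined in mouse splenic B cells: the 4 ligand genes Sema4a, Sema4b, Sema4d and Sema7a, the 3 plexin genes Plxnb2, Plxnc1 and Plxnd1, and the neuropilin gene Nrp1. These 8 genes, of 12393 genes that the array names, were taken with every probe set annotated to 1 of them alone, 18 probe sets in all. The study set marginal zone B cells against follicular B cells, with 1 array of each. Both populations came from wild-type female C57BL/6 mice, with no treatment named in the labels and no age given. B220-positive spleen cells of 3 mice were enriched on beads and then stained for the sort, in which the marginal zone population was taken as high in CD21 and intermediate in CD23, and the follicular population as intermediate in CD21 and high in CD23. Sorted cells were pooled before lysis, so an array holds a mixture of animals, and whether the same mice gave both populations is not stated.

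Semaphorins are secreted, membrane-spanning or lipid-anchored proteins that share an extracellular sema domain, first known as guidance cues for growing axons. Most of them signal through plexins, single-pass receptors whose cytoplasmic part acts on small GTPases of the Ras and Rap families and so alters integrin adhesion and the actin cytoskeleton; neuropilins serve as coreceptors for secreted semaphorins. In the immune system several class 4 members and Sema7a act between lymphocytes, dendritic cells and macrophages. Follicular B cells recirculate through the follicles, whereas marginal zone B cells stay beside the blood sinus at the follicle's edge and shuttle between it and the follicle.

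Signals are MAS5 intensities, brought to the same trimmed mean on both arrays. The median of all scaled signals, 12.7, served as a floor, and lower signals were raised to it before a ratio was taken. A probe set was called measured when its higher signal passed the floor, and a gene with several measured probe sets is given by the brightest. Ratios are marginal zone over follicular, and where the lower signal was under the floor the fold is a bound, written "at least". There was 1 array per population, so no replicate error exists, no test was possible, and 2-fold serves as a threshold of size. Since the arrays hold RNA of whole populations, fewer cells that express a gene and less RNA per cell cannot be told apart.

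The sort genes followed their labels, with Cr2 (CD21) at 889.9 in marginal zone and 277.9 in follicular B cells and Fcer2a (CD23) at 89.6 in marginal zone and 726.8 in follicular B cells; these genes chose the cells. The B cell markers Ms4a1, Cd79a, Cd79b and Pax5 were measured on both arrays, all within 2-fold. Ms4a1 read 1878 in marginal zone and 1754 in follicular B cells. The other 3 were lower in marginal zone cells, Cd79b by 1.90-fold, Cd79a by 1.70-fold and Pax5 by 1.25-fold. Macrophage and monocyte markers were low but ran toward the marginal zone array. Of 13 such genes 8 were measured, all 8 with the higher value in marginal zone cells. Most of the 8, Cd5l among them, were counted as measured through their marginal zone signal alone. Those could not have gone the other way. Past 2-fold were 2 of the 8, against a background of 4.39% of measured genes. The summed signal of the 13 was 216.1 in marginal zone and 102.4 in follicular B cells. Csf1r, past 2-fold, read 42.5 in marginal zone and 17.3 in follicular B cells, and its other probe sets had log2 ratios of 0.17 and 1.70. Cd5l, also past 2-fold, read 26.7 in marginal zone and 11.1 in follicular B cells, the latter under the floor. None of the 13 was at 0 on either array, and C1qa, C1qc, Marco, Mertk and Itgam stayed below the floor on both. Under the floor, C1qc, Marco and Itgam read higher in follicular cells, and C1qa and Mertk read higher in marginal zone cells. Of 4 plasma cell markers, Sdc1 was at least 5.39-fold lower in marginal zone cells by probe set 1437279_x_at. Its other measured probe sets gave log2 bounds of -1.20 and -0.32. Prdm1 was 2.43-fold higher there, and Xbp1 and Jchain were within 2-fold by the brightest probe set. No measured marker of dendritic, T, natural killer, erythroid or endothelial cells, neutrophils or platelets reached 2-fold with the floor applied. The part of any of these cells in the results that follow was not tested.

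Of the 8 genes, 6 were measured, by 9 of the 18 probe sets. Sema7a, Plxnc1 and Plxnd1 reached 2-fold in favour of marginal zone B cells, 3 of 6 measured, against a background of 4.39% of 7695 measured genes. No member (0 of 6) reached 2-fold in favour of follicular cells, where the background was 4.86%. By probe set the counts were 5 of 9 toward marginal zone cells, against 4.36% of 11671 measured probe sets, and 0 of 9 toward follicular cells, against 5.02%; 3 of the 5 belong to Plxnc1 and share its transcript. Sema4b and Sema4d were lower in marginal zone cells by less than 2-fold, Nrp1 barely passed the floor, and Sema4a and Plxnb2 were below it on both arrays. The median log2 ratio of the 6 was 0.61, against -0.03 over all measured genes. Plxnd1 and Nrp1 were counted as measured through their marginal zone signal alone, and the genes were chosen with earlier results of these arrays known, so the count and the median describe the group and support nothing further.

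**Figure D1:**
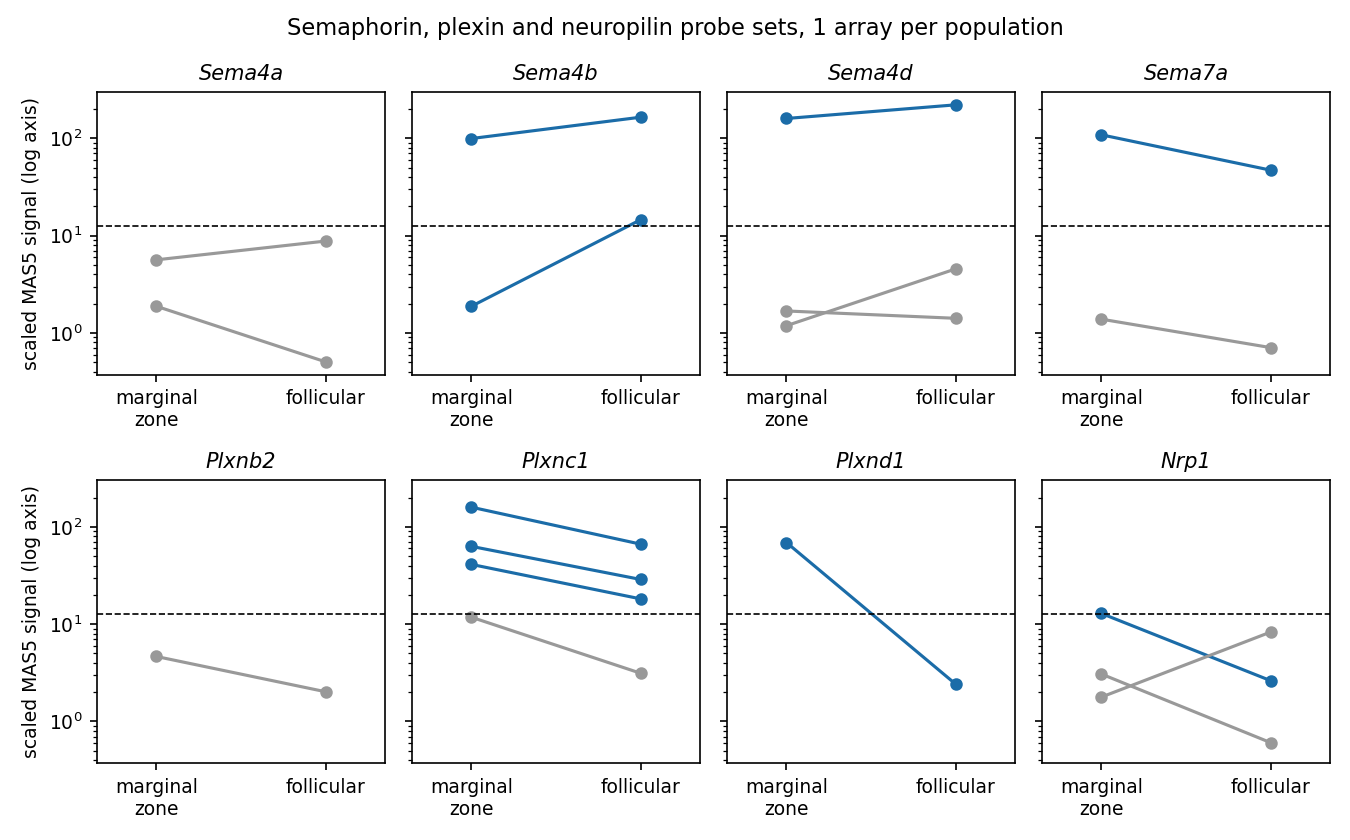
Scaled MAS5 signal (log axis) of every probe set of the 8 genes, marginal zone on the left and follicular on the right of each panel; each line joins the 2 arrays for 1 probe set, and the dashed line is the floor of 12.7. Blue lines are measured probe sets and grey lines are below the floor on both arrays. The 3 blue lines of Plxnc1 run nearly parallel, and those of Sema4b and Sema4d slope the other way.

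Among the ligands, Sema7a was the member with the higher signal in marginal zone B cells. It encodes a semaphorin held in the membrane by a lipid anchor, which binds plexin C1 and also beta-1 integrins. Its probe set 1459903_at read 108.6 in marginal zone and 47.1 in follicular B cells, a log2 ratio of 1.21 or 2.31-fold. Of all measured genes, 97.5% had a lower ratio. The other Sema7a probe set, 1422040_at, read 1.39 in marginal zone and 0.707 in follicular B cells, far below the floor, so the difference in Sema7a rests on a single probe set.

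The class 4 semaphorins are membrane proteins of which several are made by lymphocytes. Sema4d, also called CD100, is carried by T and B cells and binds CD72 on B cells and plexins of the B class. Its signal was 159.8 in marginal zone and 220.7 in follicular B cells by probe set 1420824_at, a log2 ratio of -0.47, so it was 1.38-fold lower in marginal zone cells. The other 2 Sema4d probe sets read 1.68 and 1.19 in marginal zone and 1.41 and 4.55 in follicular B cells, under the floor on both arrays.

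Sema4b had a difference of the same sign as Sema4d and a larger size. Probe set 1455678_at read 99.5 in marginal zone and 164.7 in follicular B cells, a log2 ratio of -0.73, or 1.66-fold lower in marginal zone cells. Its other probe set, 1427586_at, read 1.88 in marginal zone and 14.6 in follicular B cells, and passed the floor in follicular cells alone. Both probe sets had the lower signal in marginal zone cells, and with the floor applied both were within 2-fold. Sema4a, known in mouse as a ligand of Tim-2 on T cells and of plexins, read 5.64 and 1.88 in marginal zone and 8.79 and 0.505 in follicular B cells by its 2 probe sets. Those values lie below the floor and have no reliable order; the brighter probe set, 1438934_x_at, is of the type that the array's naming marks as possibly shared with other transcripts.

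Among the receptors, Plxnc1 was read by the most probe sets. It encodes plexin C1, the plexin that binds Sema7a. Probe set 1423213_at read 159.0 in marginal zone and 66.4 in follicular B cells, 2.40-fold. Probe set 1450905_at read 62.9 in marginal zone and 28.8 in follicular B cells, 2.19-fold. Probe set 1450906_at read 41.1 in marginal zone and 18.2 in follicular B cells, 2.26-fold. All 3 measured probe sets thus gave nearly the same ratio, with log2 values from 1.13 to 1.26 and an SD of 0.067, although they share both RNA samples and repeat only the probe measurement. The median SD between measured probe sets of a gene was 0.29 over 2622 genes, and 11.0% of those genes had a smaller SD than Plxnc1. Many of those genes had fewer measured probe sets than Plxnc1, and floored signals were included, so the comparison is a rough one. Of 891 genes with 3 or more measured probe sets, 10 (1.12%) had every such probe set past 2-fold toward marginal zone cells, and Plxnc1 was among the 10. The remaining probe set, 1423214_at, read 11.8 in marginal zone and 3.13 in follicular B cells, with both values under the floor.

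Plxnd1 had the largest ratio of the 6. It encodes plexin D1, a receptor for Sema3e that is known from the patterning of blood vessels and from thymocyte migration in mouse. Its only probe set, 1451475_at, read 69.0 in marginal zone and 2.43 in follicular B cells. The follicular signal was under the floor, so the fold toward marginal zone cells was at least 5.45, a log2 bound of 2.45. No second probe set was there to repeat it, and with the floor raised to the 75th percentile of all signals, 45.7, the log2 bound came to 0.59.

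Plxnb2 and Nrp1 were near or under the floor. Plxnb2 encodes plexin B2, a receptor of class 4 semaphorins, and its single probe set read 4.65 in marginal zone and 2.02 in follicular B cells. Nrp1, the coreceptor of secreted semaphorins and of vascular endothelial growth factor, had 3 probe sets. The brightest read 12.9 in marginal zone and 2.63 in follicular B cells, at least 1.02-fold. The other 2 read 3.07 and 1.78 in marginal zone and 0.606 and 8.29 in follicular B cells, which went opposite ways below the floor. No level of either gene could be compared between the populations.

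**Figure D2:**
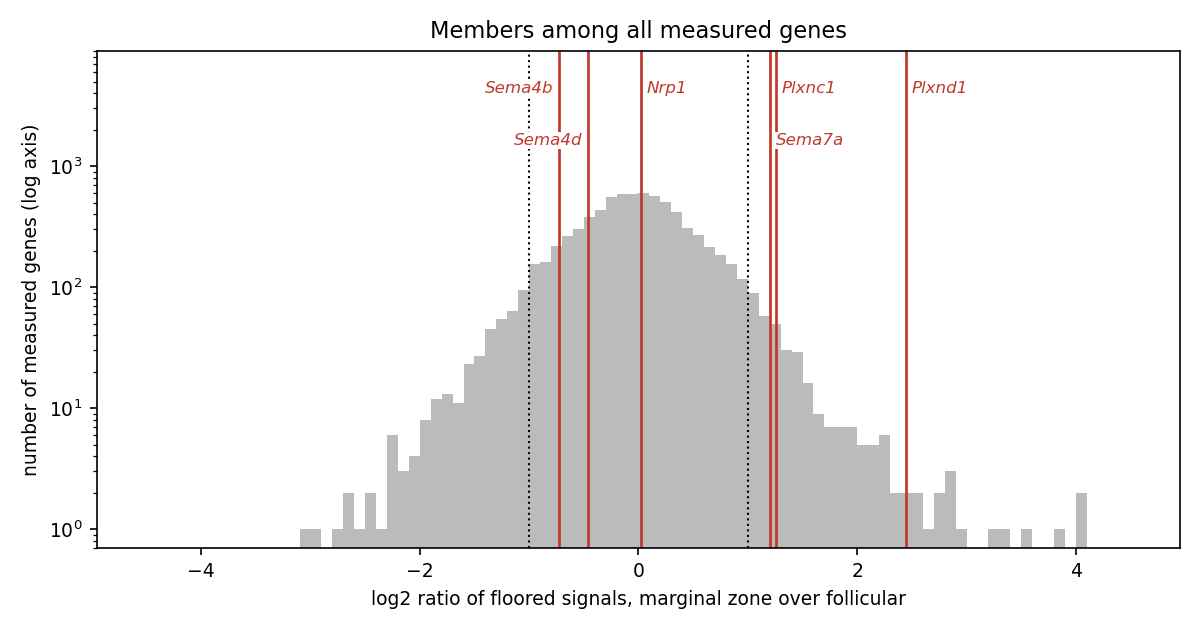
Log2 ratio of floored signals, marginal zone over follicular, for 7695 measured genes (grey bars, gene number on a log axis), with the 6 measured members as red lines and 2-fold either way as dotted lines. Plxnd1, Plxnc1 and Sema7a lie right of the 2-fold line, and Sema4b and Sema4d lie left of 0 but inside it.

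Plxnc1, Plxnd1 and Sema7a, the 3 genes past 2-fold, each had 1 annotated start in RefSeq's GRCm38.p6 promoter table, where all 8 genes were found, in 15 windows. The 250 bases before each start are shown because these genes were higher on the same array; capitals mark every match to the motifs named after them.
Plxnc1, chr10:94944846-94945095, minus strand: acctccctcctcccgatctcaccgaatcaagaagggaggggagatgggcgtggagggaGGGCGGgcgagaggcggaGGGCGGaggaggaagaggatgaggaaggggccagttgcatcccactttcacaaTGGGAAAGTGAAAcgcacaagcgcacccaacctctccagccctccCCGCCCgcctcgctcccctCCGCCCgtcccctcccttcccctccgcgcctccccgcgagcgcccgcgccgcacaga
Plxnd1, chr6:115995006-115995255, minus strand: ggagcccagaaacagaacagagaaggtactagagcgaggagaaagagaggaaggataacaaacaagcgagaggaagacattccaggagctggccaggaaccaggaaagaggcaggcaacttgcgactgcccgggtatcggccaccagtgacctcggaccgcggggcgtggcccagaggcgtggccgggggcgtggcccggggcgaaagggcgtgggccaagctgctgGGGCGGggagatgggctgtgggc
Sema7a, chr9:57939862-57940111, plus strand: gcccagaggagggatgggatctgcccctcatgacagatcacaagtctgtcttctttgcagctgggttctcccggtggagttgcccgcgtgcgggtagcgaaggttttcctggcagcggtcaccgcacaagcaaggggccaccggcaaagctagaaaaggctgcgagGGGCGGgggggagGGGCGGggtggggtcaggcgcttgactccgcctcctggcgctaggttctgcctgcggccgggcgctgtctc

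The motifs were searched on both strands and were chosen after these sequences had been read. The GC box GGGCGG matched 4 times before Plxnc1, 1 time before Plxnd1 and 2 times before Sema7a, and stood in 32.7% of 32851 windows of the same length in the table. The core bound by interferon regulatory factors, searched as GAAA, any 2 bases and GAAA, matched before Plxnc1, 118 to 109 bases ahead of the start, and stood in 2.98% of all windows; it was in no other window of the 8 genes. It overlapped by 3 bases a match to TGGGAA, the core bound by the Notch effector Rbpj, which began 121 bases ahead of the start and stood in 21.6% of all windows. TGGGAA also matched before Sema4a, Sema4d and Plxnb2, and the GC box matched before all 8 genes, those not higher in marginal zone cells included. These gene counts take a match in any window of a gene, whereas the shares of all windows are per window. CCGGAA of Ets factors (12% of windows), CACCTG of E proteins (17.2%) and TATAAA (12.4%) had no match in the 3 windows shown. A match is a run of letters and not a measured site, and no binding was measured here. The windows were rich in G and C, at 68.8% for Plxnc1, 64.8% for Plxnd1 and 66.4% for Sema7a. Windows of the other members ran from 52% (Sema4d) to 72.4% (Sema4b), and the content over all windows was not worked out.

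Partners of these proteins were taken from lists of the pathway. Of the other receptors and coreceptors of semaphorins, 13 were on the array and 5 measured; 2 were past 2-fold higher in marginal zone (background 4.39%) and 1 was past 2-fold lower there (background 4.86%), with a median log2 ratio of -0.11. Itgb1, the beta-1 integrin chain that serves as a Sema7a receptor, read 50.7 in marginal zone and 9.09 in follicular B cells by probe set 1426918_at, at least 4.00-fold. A second Itgb1 probe set, 1452545_a_at, read 29.6 in marginal zone and 18.9 in follicular B cells, a log2 ratio of 0.65, and the other 4 were under the floor; over the settings tried, the Itgb1 ratio ran from 0 to 2.02 on the log2 scale. Tyrobp, the adaptor that pairs with plexin A1 and Trem2 in dendritic cells and is made by macrophages, read 131.8 in marginal zone and 39.5 in follicular B cells, 3.34-fold, with Trem2 itself under the floor. L1cam, an adhesion molecule that joins neuropilin in sensing Sema3a, read 17.8 in marginal zone and 44.8 in follicular B cells, 2.51-fold lower in marginal zone cells, and its other probe set was under the floor.

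Cd72, the B cell receptor of Sema4d, had similar signals, 235.0 in marginal zone and 253.6 in follicular B cells, a log2 ratio of -0.11. The list of CD72 signalling and semaphorin shedding had 8 of 9 genes measured, 4 higher and 4 lower in marginal zone cells and none past 2-fold by the brightest probe set, with a median of -0.01. Ptpn6, the phosphatase recruited by CD72, read 107.4 in marginal zone and 172.6 in follicular B cells, 1.61-fold lower in marginal zone cells. Its other probe set, 1456694_x_at, gave a log2 ratio of -1.42, so the mean of both was past 2-fold at -1.05. That probe set is of the type marked as possibly shared with other transcripts. Grb2, an adaptor of CD72, was 1.34-fold lower in marginal zone cells by its brightest probe set, and its other probe set, past the threshold, gave a log2 ratio of -1.18. Furin, a protease that cuts proproteins, was 1.47-fold higher there. Mmp14, a membrane-bound metalloproteinase, read 20.6 in marginal zone and 8.99 in follicular B cells, a fold of at least 1.62, and passed the floor in marginal zone cells alone. Adam10 and Adam17, membrane proteases that release surface proteins, were within 1.07-fold by their brightest probe sets, and the second measured probe set of Adam17 gave a log2 ratio of -0.48.

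The rest of the family was mostly under the floor. Of the other semaphorins, 13 of 16 were on the array and 6 measured, 3 higher and 3 lower in marginal zone cells, none past 2-fold and with a median of -0.03. Sema4f, a class 4 member, read 14.5 in marginal zone and 23.9 in follicular B cells, 1.65-fold lower in marginal zone cells. Sema3e, the ligand of plexin D1, read 7.62 in marginal zone and 6.57 in follicular B cells by its brightest probe set, and all 3 of its probe sets were below the floor. Sema3c and Sema6a were above the floor in marginal zone cells only, at 18.5 and 17.7, against 0.606 and 1.21 in follicular cells; Sema6d was above it in follicular cells only, at 1.39 in marginal zone and 13.6 in follicular B cells. Among the other plexins and neuropilins, 5 of 7 were on the array and 2 were measured. Nrp2 was at 20.6 in marginal zone and 19.7 in follicular B cells, and the 2 probe sets of Plxna3 went opposite ways, with log2 bounds of -0.60 and 0.33, each with the lower signal under the floor. Plxna1, Plxna2 and Plxnb3 were below the floor on both arrays.

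Genes that carry plexin signals inside the cell were mostly within 2-fold with the floor applied. Of 30 on the array 20 were measured, 12 higher and 8 lower in marginal zone cells, with 1 of 20 past 2-fold toward marginal zone cells, near the background of 4.39%, and a median of 0.11. Some of the 20 passed the floor on 1 array alone, and a bound under 2-fold does not show that they were level. Arhgef12, an exchange factor for RhoA that binds B plexins, read 45.8 in marginal zone and 21.5 in follicular B cells, 2.13-fold, with its second probe set at 0.90 on the log2 scale; with the floor at the 75th percentile the ratio was 0.0027. Mical1, an enzyme that oxidises actin downstream of plexins, read 424.0 in marginal zone and 234.7 in follicular B cells, 1.81-fold, and its second probe set had a log2 ratio of 1.48. The brighter of these, 1456439_x_at, is of the type marked as possibly shared with other transcripts. Limk2, a kinase that inactivates cofilin, was 1.73-fold lower in marginal zone cells by the brighter probe set, and the other gave a log2 bound of 0.04. The GTPase gene Rhoa had log2 ratios of 0.34 and 0.61 by its 2 measured probe sets, and the 3 probe sets of Rap1b went both ways, from -0.21 to 0.20.

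**Figure D3:**
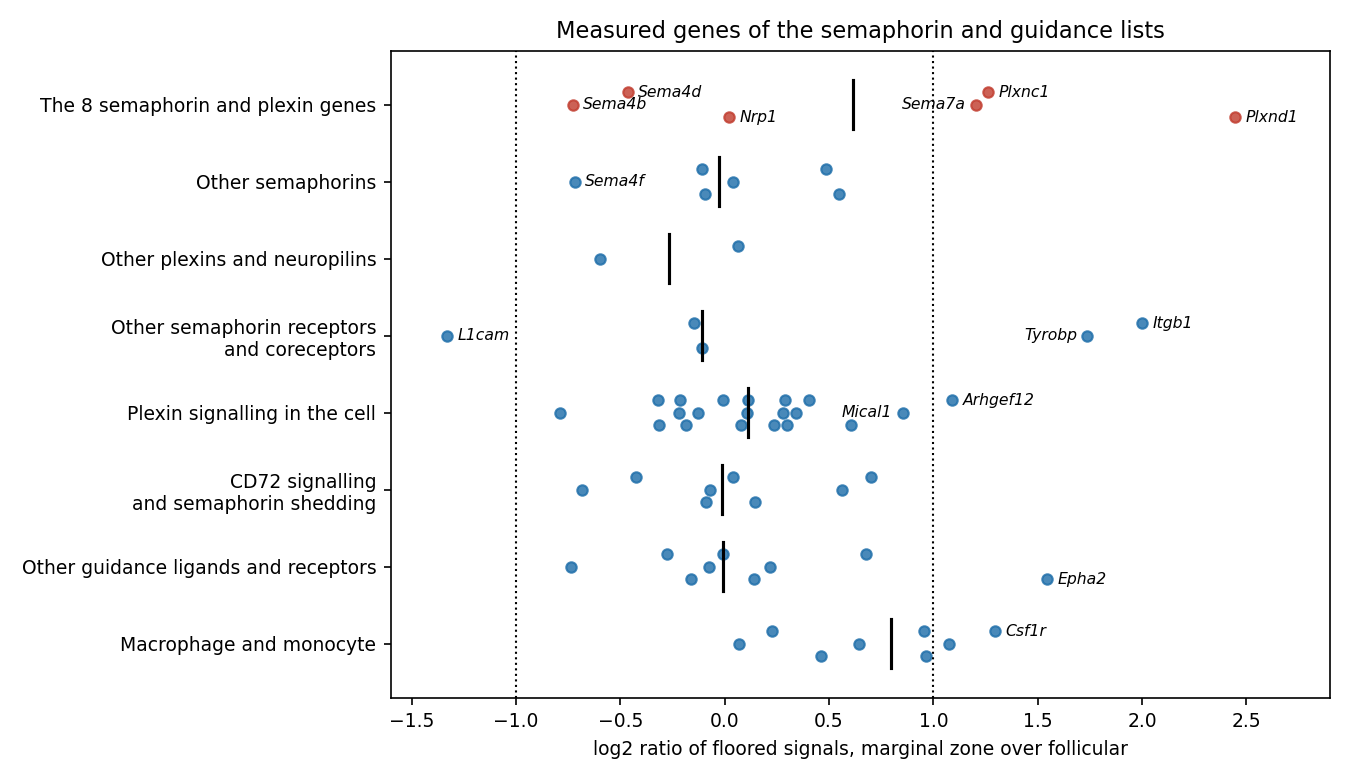
Log2 ratio of floored signals, marginal zone over follicular, for the 6 measured members (red) and for measured genes of 6 further lists of semaphorin and guidance genes and the macrophage markers (blue); 1 dot is 1 gene, black bars are medians and dotted lines mark 2-fold. Dots are shifted up or down only to keep them apart. The medians of the 6 further lists lie between -0.27 and 0.11, and that of the macrophage markers is 0.80.

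The values of the 6 members depended little on how the arrays were scaled and more on how dim signals and dim probe sets were treated. Plxnc1 kept a log2 ratio between 1.12 and 1.31 over 10 settings and was past 2-fold in all 10. Sema7a was past 2-fold in 9 of 10, the exception being 0.60 for the median of all its probe sets, which averages in the probe set below the floor. Plxnd1 ranged from 0.59 to 4.83 and was past 2-fold in 9 of 10. Sema4b stayed between -0.73 and -0.46 and Sema4d between -0.47 and 0. Nrp1 ran from 0 to 2.29 over the 9 settings in which it was measured.

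**Figure D4:**
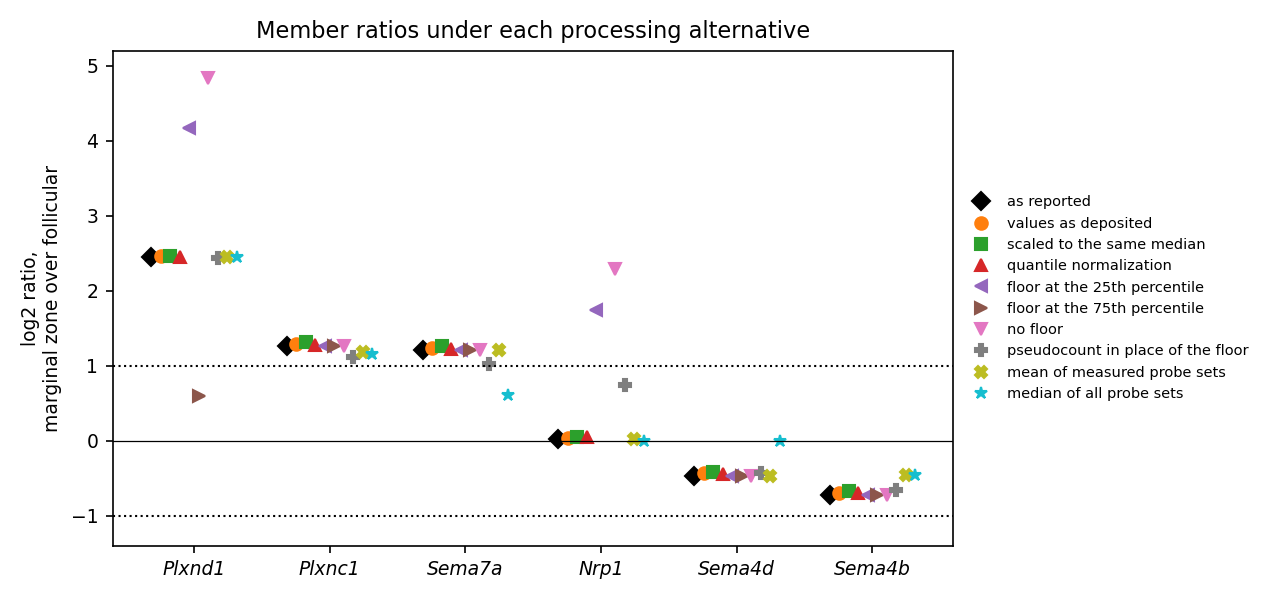
Log2 ratio of marginal zone over follicular for the 6 measured members under 10 settings (9 for Nrp1), each with its own marker; dotted lines mark 2-fold either way. Plxnc1 stays between 1.12 and 1.31, whereas Plxnd1 spreads from 0.59 to 4.83.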

How the data were processed

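Gene expression was measured on 2 single-channel Affymetrix arrays, 1 of marginal zone and 1 of follicular B cells, from about 100 ng of total RNA labelled by a 2-cycle protocol, per the labels' protocols. The deposited values are 1 linear intensity per probe set, MAS5 signals per the submitters' processing notes; no source used here gives the version, scaling target or detection calls. The table held 22626 probe sets, with medians of 12.6 for marginal zone and 12.8 for follicular cells. The platform annotation gave 1 gene to 20380, several to 691 and none to 1555.

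Arrays were scaled to the same 2% trimmed mean (factors 0.990 for marginal zone and 1.01 for follicular) and floored at the median signal, with Python 3.11.15, numpy 2.4.6, scipy 1.17.1 and pandas 2.3.3; 12847 probe sets and 7695 genes were measured. Precision is limited by having 1 array per population. Signals of different probe sets are not compared as levels. All 8 members are named; of each further list, members past 2-fold and up to 4 others with the largest ratios could be, and Nrp2, Sema3e, Trem2, Cd72, Adam10, Adam17, Rhoa, Rap1b and the genes below the floor were named after their values were seen. Members and lists were chosen with earlier results of these data known. The procedure was tested on simulated data, with changes placed only in genes that had a probe set averaging over 4 times the floor. It therefore does not bear on changes in dim genes. Alternatives were 3 scalings, 4 treatments of dim signals, 2 probe set rules and 2 thresholds.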

Additional observations from a re-analysis of the deposited data

How the results depend on the processing

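No paired analysis was possible because each population has 1 array, and none could be left out. The 11 alternatives were 3 scalings, 4 treatments of dim signals, 2 rules for probe sets and 2 thresholds. The count of 3 members past 2-fold toward marginal zone B cells was 1 with a threshold of 3-fold (Plxnd1), and between 2 and 4 under the other alternatives. The count of 0 past 2-fold toward follicular cells became 1 at 1.5-fold (Sema4b) and stayed 0 under the other 10. Of 53 values of the 6 members under the alternatives, 45 moved by less than the root mean square of the SDs between probe sets of a gene (0.44 on the log2 scale, the median SD being 0.29) and 8 by more. Some of the 45 could not move, since both signals of the brightest Plxnc1, Sema7a, Sema4b and Sema4d probe sets lay above every floor tried. No member past 2-fold changed sign, which was hardly possible because all their measured probe sets were higher in marginal zone cells. Sema4a and Plxnb2 were measured only with the floor at the 25th percentile, and Nrp1 was not measured at the 75th. The partner genes were put through the same settings, a choice made after seeing the data. Itgb1 ran from 0 to 2.02 and was past 2-fold toward marginal zone cells in 6 of 10 settings, as was Arhgef12 (0.0027 to 1.14). Tyrobp passed that way in 10 of 10, and L1cam passed toward follicular cells in 7 of 9. Some genes within 2-fold as reported also passed. Toward marginal zone cells these were Mical1 in 2 of 10, Mmp14 in 2 of 9, and Sema3c and Sema6a in 3 of 9. Toward follicular cells they were Ptpn6 in 2 of 10 and Sema6d in 2 of 9. Further genes of the lists, not named here, passed in some settings in either direction. Of all measured genes, 10.2% were past 2-fold in the marginal zone direction with no floor, against 4.39% with it, so ratios of dim probe sets are the least certain.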

Other observations

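Other families of guidance molecules were mostly not measured in either population. Of 33 ephrin, Eph receptor, Slit, Robo, netrin and netrin receptor genes on the array, 9 were measured. Of these, 4 had the higher and 5 the lower value in marginal zone B cells, and the median log2 ratio was -0.01. By the probe set used, all 9 passed the floor on 1 array alone, and that array fixed the direction of each. The median was thus taken over bounds and does not show level expression. Epha2, a receptor tyrosine kinase for ephrins of the A class, was the 1 gene of 9 past 2-fold toward marginal zone cells, where the background was 4.39%, at 37.0 in marginal zone and 5.66 in follicular B cells, a fold of at least 2.92 toward marginal zone cells. Efnb1, a membrane-bound ephrin, read 20.3 in marginal zone and 6.57 in follicular B cells, at least 1.60-fold, while its other measured probe set had a log2 ratio of -0.19. Efnb2 read 10.7 in marginal zone and 21.1 in follicular B cells, at least 1.67-fold lower in marginal zone cells.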
